A study of Rattus norvegicus with 5 samples.

Results

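The 3 metastatic lung nodules of a xenograft study were compared with each other: nodule 3 was set against the mean of nodules 1 and 2, and nodule 1 minus nodule 2 served as the reference spread. They are 3 of the 5 samples of the series. The tumours grew from C6-L cells, a rat glioma line, in BALB/c nu/nu nude mice, a mouse strain that lacks a thymus and with it most T cells. Hosts were 6 weeks old, and nodules were collected 6 weeks after γ-irradiation. The other samples are an irradiated primary tumour of the same time point and a primary tumour without irradiation, collected 6 weeks after the xenograft was made. The nodules share cell line, host strain, irradiation and time point, and the labels do not say whether they came from separate animals. Each nodule is 1 array, so a difference between nodules has no replicate check and no test was made. Probes were designed on rat transcripts, so RNA of the mouse host was read through probes of another species, and the species behind a signal was not tested. In tissue RNA, fewer cells of a type and less RNA per cell cannot be told apart.

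A nodule dissected from a host organ holds tumour cells, vessels, blood and some of the organ around it. Alveolar type 1 cells form the gas-exchange surface of the lung, alveolar type 2 cells secrete surfactant, and club cells of the airways secrete secretoglobins. Heart muscle has its own contractile proteins and hormones, and the liver secretes most plasma proteins. Lists of genes for such tissues were therefore followed across the nodules together with lists for stroma, blood, immune cells and the tumour's own programmes.

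Levels are given as log2 of the signal after subtraction of the array's 75th percentile, so a level of 0 equals that percentile, and a difference of 1 is 2-fold. Levels of different genes come from different probes and are not compared. Of 30363 probes, those well above background on at least 1 nodule were kept, which left 19716 features, namely 11512 named genes and 8204 probes without a gene name. Well-above-background spots made up 72.5 to 73.5% of gene spots on the nodule arrays, with 0 saturated. Repeat spots of a probe had a median SD of 0.055 to 0.06 on the log2 scale, which measures spotting and scanning error alone. The number of arrays limits the precision.

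Nodule 1 was the nodule furthest from the other two. Nodules 2 and 3 correlated at 0.992 over all probes and differed at least 2-fold in 774 features, nodules 1 and 2 at 0.990 with 1394 features, and nodules 1 and 3 at 0.985 with 1866 features, where each correlation is across genes, which are not independent replicates. Against the mean of nodules 1 and 2, nodule 3 was at least 2-fold higher in 316 features (1.6%) and at least 2-fold lower in 783 (3.97%). Quantile normalization gave 400 higher and 563 lower, and the deposited matrix gave 132 higher and 204 lower, so the split between directions moves with the scaling. Nodule 1 was at least 2-fold above nodule 2 in 757 features (3.84%) and below it in 637 (3.23%), and the deposited matrix turned that split to 257 above and 341 below. The median difference over all features was -0.06 for nodule 3 against the others and 0.03 for nodule 1 minus nodule 2. Scaling to the array median moved the first of these to 0.08, so small shifts of whole lists are read against that baseline.

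Of the 1099 features past 2-fold in nodule 3, 768 differed by more than nodules 1 and 2 differed from each other, 176 of them higher and 592 lower. The other 331 lay within that reference spread, and in 80 of them nodule 3 lay between nodules 1 and 2. The 1099 were chosen for a large nodule 3 difference, and only 1394 of 19716 features passed 2-fold between nodules 1 and 2. The count of 768 is therefore no measure of whether nodule 3 exceeds the reference. Noise alone would also give the 2 differences unequal variances, of 1.5 units for nodule 3 and 2 for the reference. By single nodules, 605 features were at least 2-fold above both others in nodule 1 (3.07%), 102 in nodule 2 (0.517%) and 140 in nodule 3 (0.71%). Those at least 2-fold below both others numbered 424 in nodule 1 (2.15%), 47 in nodule 2 (0.238%) and 406 in nodule 3 (2.06%). So most features that set a nodule apart belonged to nodule 1, in both directions, or were low in nodule 3.

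**Figure D1:**
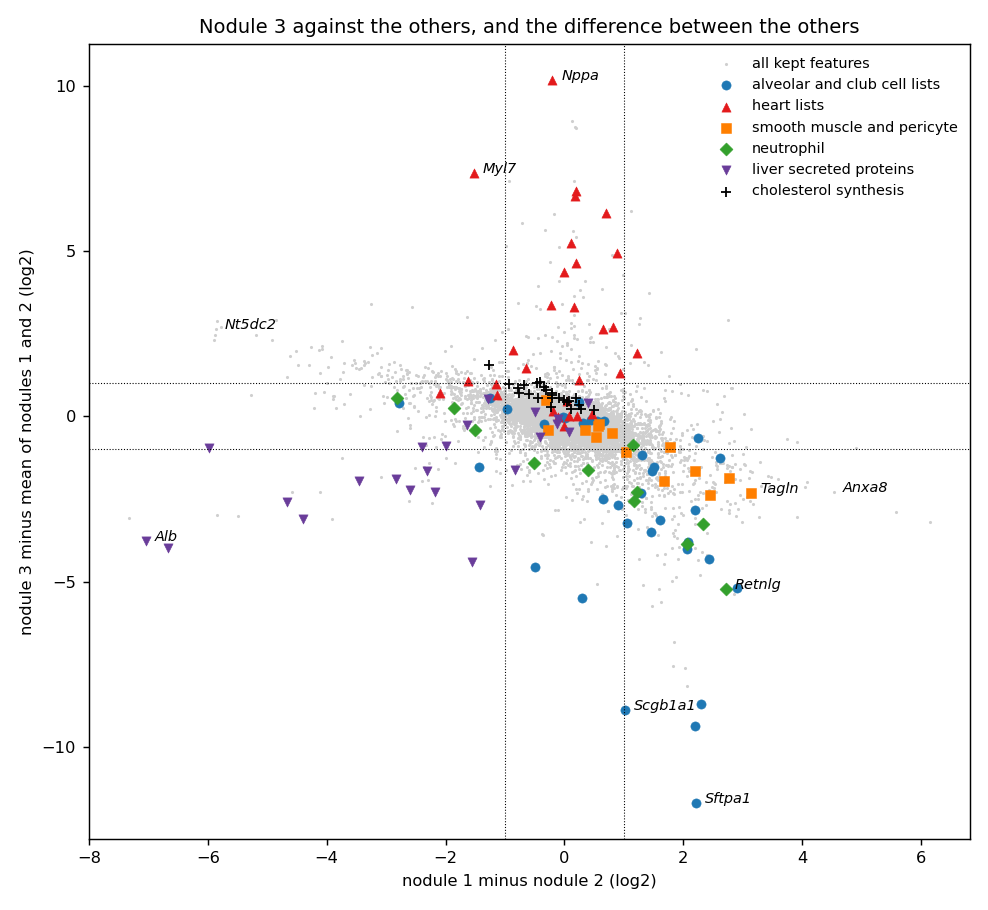
Each point is 1 of 19716 features; the horizontal axis is nodule 1 minus nodule 2 and the vertical axis nodule 3 minus the mean of nodules 1 and 2, both as log2 differences, with dotted lines at 2-fold and gene lists in colour. Most heart genes lie above, to both sides of 0 on the horizontal axis, alveolar and club cell genes lie below and to the right, and liver genes lie to the left.

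Most lung epithelial genes were lowest in nodule 3, and many were highest in nodule 1. Of 13 alveolar type 1 genes kept, 8 were at least 2-fold lower in nodule 3 and 0 higher (median -1.66); of 12 alveolar type 2 genes, 6 were lower and 0 higher (median -0.97); of 10 club cell and secretory airway genes, 8 were lower and 0 higher (median -2.59). Over all features the share lower was 3.97%. Leaving out nodule 1 gave medians of -0.93 for type 1 and -0.63 for type 2 genes, and leaving out nodule 2 gave -2.40 and -2.18. These are counts over members that passed the filter, and 4 of the alveolar type 2 genes passed without being well above background on all 3 nodules. Over the 8 alveolar type 2 genes well above background on all 3 nodules the median was -0.40, and over the 6 of the deposited matrix it was 0.11, so that list's direction depends on which members are read.

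Among the surfactant genes, the collectin Sftpa1, which binds microbes and surfactant lipid, had levels of 4.33 in nodule 1, 2.11 in nodule 2 and -8.46 in nodule 3. In nodule 3 it was not well above background, nor was it in the irradiated (-8.09) or non-irradiated primary (-8.15), and nodule 3 was at least 1019-fold below the mean of the other nodules. Such a bound raises a dim array to its lowest well-above-background level. The related collectin Sftpd had 4.46, 2.27 and -6.00, and the surface-active protein Sftpb had 1.22, -1.08 and -8.62, at least 115-fold lower in nodule 3. In each of these genes nodule 1 also stood above nodule 2, by 2.19 to 2.30. The phosphate transporter Slc34a2 of type 2 cells had -2.19, -5.10 and -8.84, and the aspartic protease Napsa, which trims surfactant proteins, had 2.00, -0.08 and -2.83. Sftpc, the surfactant protein most particular to type 2 cells, differed in nodule 1 only, with -1.04, -3.65 and -3.62, and the primaries had -2.88 and -1.89.

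Type 1 genes followed the same order. The receptor Ager had 1.88 in nodule 1, -0.18 in nodule 2 and -3.16 in nodule 3, where the irradiated primary had -3.46. The homeodomain protein Hopx had 0.07, -0.99 and -3.68, and the water channel Aqp5 had -0.40, -1.68 and -3.36. Nodule 1 was above nodule 2 and nodule 2 above nodule 3 in 11 of the 13 type 1 genes. Of 10597 named genes well above background on all nodules and placed on a chromosome, nodule 1 was above both others in 42.2%. Of those that differed little, many cell types express the caveolae protein Cav1 (5.14, 4.82 and 4.79) and the membrane glycoprotein Pdpn (3.40, 3.39 and 3.36).

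Club cell genes differed in nodule 3 far more than between nodules 1 and 2. The secretoglobin Scgb1a1, the main product of club cells, had 4.11 in nodule 1, 3.09 in nodule 2 and -5.27 in nodule 3, with -5.41 and -5.27 in the irradiated and non-irradiated primary. Scgb3a2 had -0.80, -1.09 and -6.44, at least 45.1-fold lower in nodule 3, and the club cell cytochrome Cyp2f4 had -0.88, -0.38 and -5.18. The median of the list was 0.47 for nodule 1 minus nodule 2, against 1.29 for alveolar type 1 and 2.14 for alveolar type 2 genes. The alveolar type 2 value was 1.34 with normexp, 1.37 over genes well above background on all nodules and 0.45 over the 6 of the deposited matrix, so its place above the club cell median depends on the members read. Bpifa1 (-4.28, -4.26 and -4.28) and the immunoglobulin receptor Pigr (5.35, 5.70 and 5.29) did not take part.

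The epithelial factors gave the same picture for some members. Foxa2, a forkhead factor of lung epithelium, had -2.43, -4.02 and -8.46 and was at least 11.7-fold lower in nodule 3, the tight-junction protein Cldn7 had -2.18, -4.00 and -7.08, and the keratin Krt18 had -0.90, -1.98 and -4.02. The lung factor Nkx2-1 was near the detection limit in all nodules (-5.55, -5.52 and -5.98), and Krt8 went the other way, with -1.32, 0.53 and 1.04. Of 13 genes kept in this list, 6 were at least 2-fold lower and 1 higher, against 3.97% and 1.6% over all features. Ciliated cell genes were thinly measured: 5 of 16 were kept, and the ciliary master factor Foxj1 (-1.14, -2.03 and -3.72) alone passed 2-fold, with the median at -0.63 (-0.33 without nodule 1).

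Outside the lists, the genes far lower in nodule 3 included the developmental factor Irx1 (0.42, -1.64 and -8.77, at least 71.5-fold), the dynein light chain Dynlrb2 (-1.99, -3.62 and -8.40, at least 15.7-fold), the lipid-binding Sec14l3 (-1.15, -2.47 and -6.92, at least 31.1-fold) and Bex4 (-2.16, -3.71 and -7.13, at least 14.2-fold). Inmt, an amine methyltransferase carried in the fibroblast list as a lung fibroblast gene, had 1.14, -0.69 and -7.34, at least 128-fold lower. In all 5 nodule 1 was the highest. The labels call each sample a lung nodule. The defining surfactant genes Sftpa1 and Sftpb were not well above background in nodule 3, as in both primaries, but Sftpd, Sftpc, Napsa and Scgb1a1 were, and 9 of the 12 alveolar type 2 genes kept were well above background there. In the irradiated and non-irradiated primary, 7 and 6 of these 12 were. Of all 19716 features, 18631 were well above background in nodule 3, 17555 in the irradiated and 17499 in the non-irradiated primary. Features were kept through the nodules, so the filter alone can make the nodule count the higher one. In nodule 3, Scgb1a1 (-5.27) and Sftpd (-6.00) lay near the irradiated (-5.41 and -6.31) and non-irradiated primary (-5.27 and -5.92). So 8 of 13 type 1, 8 of 10 club cell and 6 of 12 type 2 genes were at least 2-fold lower in nodule 3. Whether the signal left there came from lung cells was not tested.

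**Figure D2:**
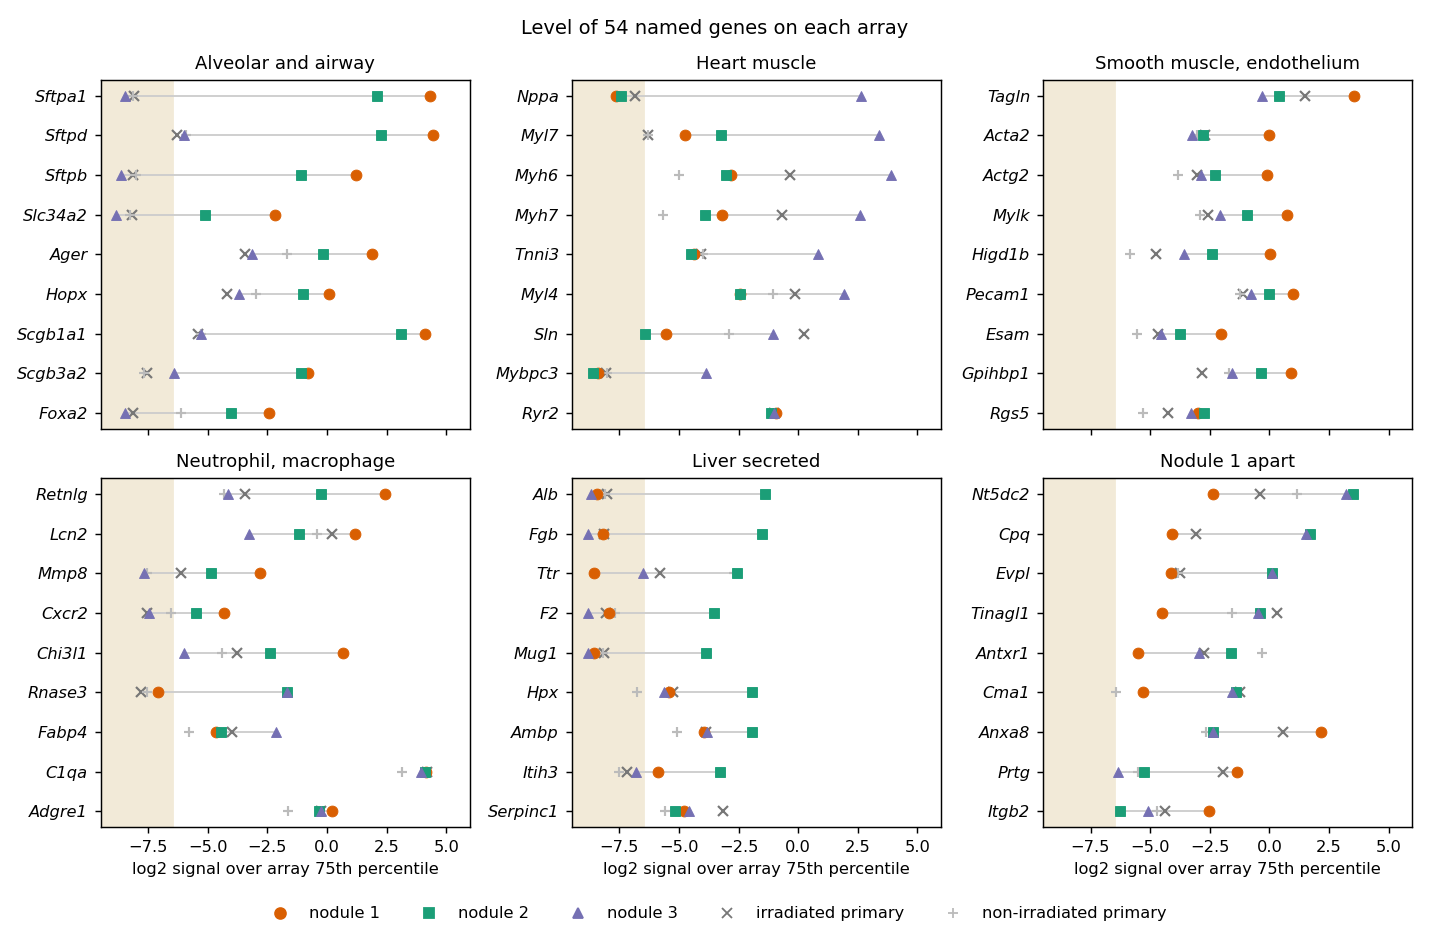
Levels of 54 genes in 6 groups, as log2 signal over the array's 75th percentile, with 1 symbol per array and the range of the nodules as a grey line; the shaded zone lies under the nodules' highest lowest-well-above-background level (-6.46 in nodule 1). Nodule 3 is lowest for most lung epithelial genes and highest for most heart genes, nodule 2 is highest for the liver genes shown except Serpinc1, and nodule 1 stands alone in the last panel.

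Most heart muscle genes were higher in nodule 3 than in the other nodules, and as lists they were not low in the irradiated primary. Of 13 contractile genes kept, 11 were at least 2-fold higher in nodule 3 and 0 lower (median 3.38), and 10 of the 13 were well above background on all 3 nodules. Of 16 genes for heart hormones, regulators and factors kept, 8 were higher and 0 lower (median 0.88). All 16 were well above background in nodule 3 but only 10 on all 3 nodules, so some passed the filter through nodule 3 alone. Over those 10 the median was 0.31. It was 0.27 with normexp and 0.43 over the 8 genes of the deposited matrix. Over all features 1.6% were higher. The second median was 0.39 without nodule 1 and 1.48 without nodule 2. Between nodules 1 and 2 the medians of these lists were 0.12 and 0.02, with members on both sides: 1 contractile gene was at least 2-fold higher in nodule 1 (Tnnt2) and 2 lower (Myl7 and Myl3), and 3 of the other list were lower (Nppb, Csrp3 and Gja5). Over all features 3.84% were higher and 3.23% lower. With dim levels raised to the detection limit the medians for nodule 3 were 2.71 and 0.79. Median levels of the contractile genes were -3.21, -3.18 and 0.81 in the nodules, -0.59 in the irradiated and -2.17 in the non-irradiated primary. Those of the other list were -4.79, -5.13 and -1.75 in the nodules, -1.52 in the irradiated and -2.94 in the non-irradiated primary. So the irradiated primary lay above nodules 1 and 2 in both lists.

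The atrial hormone Nppa, which lowers blood pressure through salt loss, had the largest positive difference of all features. Its levels were -7.65 in nodule 1, -7.45 in nodule 2 and 2.63 in nodule 3, so nodule 3 was at least 587-fold higher. It was not well above background in nodules 1 and 2 or in either primary (-6.83 and -7.60). The atrial myosin light chain Myl7 had -4.75, -3.22 and 3.37, a difference of 7.36, and it was not well above background in the primaries. The other atrial light chain, Myl4, had -2.44, -2.43 and 1.92, and sarcolipin (Sln), which inhibits the calcium pump of atrial and some skeletal muscle, had -5.54, -6.41 and -1.05. All 4 are genes that the atrium expresses far above the ventricle in adult rodents.

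Heavy chains and troponins of the working heart muscle lay the same way. Myh6 had -2.84, -3.03 and 3.87, and Myh7 had -3.21, -3.90 and 2.60. The irradiated primary had -0.34 for Myh6 and -0.70 for Myh7, and the non-irradiated primary had -5.01 and -5.69. Cardiac troponin I (Tnni3), the troponin subunit that holds back contraction, had -4.37, -4.49 and 0.81, with -4.08 and -4.01 in the primaries. The cardiac myosin-binding protein Mybpc3 had -8.41, -8.60 and -3.86 and was well above background in nodule 3 alone among the 5 samples. Cardiac troponin T (Tnnt2) was measured in all nodules and differed less, at 2.07, 0.84 and 3.38. The ventricular light chain Myl2 was not well above background on any nodule, and the ventricular and slow-muscle light chain Myl3 reached -6.24 in nodule 3. The calcium release channel Ryr2 (-0.93, -1.13 and -1.01), the calcium-binding Casq2 (-1.09, -1.55 and -1.26) and the factor Nkx2-5 (-5.42, -5.42 and -5.72) did not differ past 2-fold.

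Factors of the heart were near the detection limit even in nodule 3. Gata4, a zinc-finger factor of heart development, had -7.43, -6.78 and -5.64 and was at least 1.91-fold higher. The protease Corin, which activates the Nppa precursor, had -8.64, -8.80 and -5.41 and was at least 2.24-fold higher, and the atrial potassium channel Kcnj3 had -6.54, -7.47 and -5.69, at least 1.85-fold higher. Each was well above background in nodule 3 only, also against both primaries. The muscle stress protein Ankrd1 had -4.03, -4.85 and -1.74.

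Of 16 skeletal muscle genes kept, 3 were at least 2-fold higher in nodule 3, against 1.6% over all features, and 0 lower. The median was 0.32, and 0.12 without nodule 1, while several members were far higher in the irradiated primary. The fast light chain Myl11 had -3.51, -3.05 and -2.96 in the nodules against 5.06 in the irradiated primary, and fast troponin I (Tnni2) had 1.86, 1.94 and 1.94 against 5.32. The 3 that passed were Acta1 (-5.02, -5.29 and -3.68), Ckm (-2.86, -3.99 and -1.27) and Myl1 (-8.48, -8.24 and -3.68). Of the 13 genes of muscle energy supply, 5 were higher in nodule 3 and 0 lower. They were the mitochondrial creatine kinase Ckmt2 (-7.59, -6.66 and 0.00, at least 94.2-fold), the cytochrome oxidase subunit Cox6a2 (-1.90, -2.24 and 2.02), the fatty acid carrier Fabp3 (-4.43, -5.39 and -1.78), Pgam2 (-5.22, -5.11 and -2.45) and myoglobin, Mb (-1.99, -2.04 and 0.14). Ckmt2 had -0.22 in the irradiated and -3.85 in the non-irradiated primary.

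Several other genes with large positive differences in nodule 3 are known from striated muscle, which describes these genes and not all that were higher. Smpx had -8.53, -8.70 and -1.94 (at least 24.8-fold), triadin, Trdn, of the calcium release complex had -7.54, -8.66 and -1.88 (at least 25.9-fold), and the M-band protein Myom2 had -8.42, -7.43 and -2.78 (at least 13.8-fold). Txlnb (-8.55, -8.70 and -3.02) and Abra (-6.43, -7.06 and -2.90) followed. These 5 were also well above background in both primaries, where skeletal muscle genes were high. C19h16orf46 had -4.17, -4.37 and 1.17, with -4.32 and -4.49 in the primaries, and Tlcd5 (-8.38, -8.21 and -2.18) was well above background in nodule 3 alone among the 5 samples. Beside the muscle genes, 4 of 9 fat cell genes were higher in nodule 3 and 0 lower, among them the lipid carrier Fabp4 (-4.64, -4.43 and -2.14), the lipid droplet protein Cidec (-7.84, -7.20 and -5.08) and the uncoupling protein Ucp1 of brown fat (-7.40, -6.01 and -4.65). Over all features 1.6% were higher. The fat cell list's median was 0.97, but 0.07 where all 3 nodules had to be well above background, which left 6 genes, and -0.02 without nodule 1. Cfd (-7.42, -4.96 and -4.98) passed 2-fold because nodule 1 was low, while nodules 2 and 3 were alike.

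Liver genes marked nodule 2. Albumin (Alb), the main plasma protein, had -8.44 in nodule 1, -1.39 in nodule 2 and -8.68 in nodule 3, so nodule 2 was at least 33.4-fold above nodule 1. The fibrinogen chain Fgb had -8.20, -1.53 and -8.83 (at least 30.5-fold over nodule 1), and transthyretin (Ttr), a carrier of thyroid hormone and retinol, had -8.54, -2.56 and -6.50 (at least 14.9-fold). The liver list was written after these values were seen. Of its 23 members kept, nodule 2 was at least 2-fold above both others in 15, against 0.517% of all features, a share that the choice of the list makes large. Prothrombin (F2: -7.92, -3.53 and -8.82), Mug1 (-8.55, -3.88 and -8.82), haemopexin (Hpx: -5.40, -1.94 and -5.63) and Ambp (-3.94, -1.95 and -3.84) showed the same order. Members that did not were plasminogen, Plg (-1.19, -1.06 and -1.35), Serpinc1 (-4.79, -5.19 and -4.57) and the apolipoprotein Apoa2 (-5.39, -5.46 and -5.91). Only 9 of the 23 were well above background on all 3 nodules, and in both primaries Alb, Fgb and F2 were not.

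Since members of these groups differed together, the 250 bases before the start of 5 of their leading genes are shown for short motifs of factors known in heart, lung and liver. Sequences are RefSeq's, on assembly GRCr8, 5′ to 3′ on the gene's strand. Capitals mark matches, on either strand and with overlaps allowed, to GATAA (GATA factors), CAAGTG (NKX2 factors), TGTTTAC or TGTTTGC (forkhead factors), GTTAAT (part of the HNF1 motif) and TATAAA (the TATA box). The regions are chr5:163711934-163712183 (plus strand) for Nppa, chr14:84996625-84996874 (minus) for Myl7, chr1:215409687-215409936 (minus) for Scgb1a1, chr16:17042014-17042263 (plus) for Sftpa1 and chr14:17906980-17907229 (minus) for Alb.
Nppa: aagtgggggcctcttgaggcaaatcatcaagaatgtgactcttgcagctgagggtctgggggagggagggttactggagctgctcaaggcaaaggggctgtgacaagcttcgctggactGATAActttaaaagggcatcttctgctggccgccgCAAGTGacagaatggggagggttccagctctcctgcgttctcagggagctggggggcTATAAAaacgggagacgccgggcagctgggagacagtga
Myl7: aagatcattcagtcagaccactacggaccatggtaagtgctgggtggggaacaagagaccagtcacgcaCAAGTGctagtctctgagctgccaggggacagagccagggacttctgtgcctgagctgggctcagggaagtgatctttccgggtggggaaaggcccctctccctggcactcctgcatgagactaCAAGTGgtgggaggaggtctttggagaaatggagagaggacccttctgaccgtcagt
Scgb1a1: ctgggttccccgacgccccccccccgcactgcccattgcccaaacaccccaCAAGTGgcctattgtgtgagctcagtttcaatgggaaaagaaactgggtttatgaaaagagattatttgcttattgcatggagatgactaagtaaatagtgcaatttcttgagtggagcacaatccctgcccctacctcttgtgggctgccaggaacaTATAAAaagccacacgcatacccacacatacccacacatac
Sftpa1: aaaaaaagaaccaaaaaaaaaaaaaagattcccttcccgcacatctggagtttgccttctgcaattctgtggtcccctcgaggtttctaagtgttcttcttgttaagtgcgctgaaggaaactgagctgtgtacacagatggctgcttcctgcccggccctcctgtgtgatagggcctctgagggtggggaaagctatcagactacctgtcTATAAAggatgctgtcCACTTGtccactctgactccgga
Alb: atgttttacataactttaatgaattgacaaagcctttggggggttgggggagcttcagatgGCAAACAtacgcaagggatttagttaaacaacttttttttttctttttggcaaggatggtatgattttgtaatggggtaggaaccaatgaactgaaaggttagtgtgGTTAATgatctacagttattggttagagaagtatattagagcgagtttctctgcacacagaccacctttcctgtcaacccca
Nppa, high in nodule 3, holds 1 GATAA, 1 CAAGTG and 1 TATAAA, and Myl7 holds 2 CAAGTG. Scgb1a1 and Sftpa1, low in nodule 3, each hold 1 CAAGTG, in Sftpa1 on the other strand (CACTTG), and 1 TATAAA. Alb, high in nodule 2, holds 1 forkhead match on the other strand (GCAAACA) and 1 GTTAAT. Of the 22 heart genes with a promoter in the table, out of 29 kept, 9 held GATAA (40.9%), 3 held CAAGTG (13.6%) and 4 held TATAAA (18.2%), with 0 for the forkhead pair and 0 for GTTAAT. Of 28 alveolar and airway genes, out of 35, 7 held CAAGTG (25%), 5 a forkhead match (17.9%), 5 GATAA (17.9%), 6 TATAAA (21.4%) and 1 GTTAAT (3.57%). Of 19 liver genes, out of 23, 8 held a forkhead match (42.1%), 6 GTTAAT (31.6%), 6 GATAA (31.6%), 3 CAAGTG (15.8%) and 4 TATAAA (21.1%). So CAAGTG was no more frequent in heart than in liver genes, and TATAAA had a like share in each group. Among all 27457 promoters the shares were 23.2% for GATAA, 11.7% for CAAGTG, 7.16% for the forkhead pair, 6.46% for GTTAAT and 13.1% for TATAAA. A match describes the letters only.

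Most smooth muscle genes were highest in nodule 1 and lowest in nodule 3, in 11 of 14 with nodule 2 between. Nodule 1 was above both others in 42.2% of the 10597 placed genes well above background on all nodules. Of 14 smooth muscle and pericyte genes kept, 7 were at least 2-fold above nodule 2 in nodule 1 and 0 below it (median 0.91), and 6 were at least 2-fold lower in nodule 3 than in the mean of the others (median -0.77, and -0.41 without nodule 1 or -1.24 without nodule 2). All 14 were well above background on all nodules. Over all features 3.84% were higher and 3.23% lower in nodule 1 than in nodule 2, and 3.97% were lower in nodule 3. The actin-binding Tagln had 3.55 in nodule 1, 0.41 in nodule 2 and -0.33 in nodule 3. Smooth muscle actin (Acta2) had 0.00, -2.77 and -3.25, enteric actin (Actg2) had -0.09, -2.29 and -2.85, and the myosin light chain kinase Mylk had 0.72, -0.96 and -2.06. So for the actins the gap lay between nodule 1 and the other two, whereas the pericyte gene Higd1b was graded (0.02, -2.42 and -3.57). The pericyte regulator Rgs5 (-3.01, -2.72 and -3.28) and the receptor Notch3 (-3.70, -4.05 and -4.28) differed little.

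Of 15 endothelial genes kept, 6 were at least 2-fold lower in nodule 3, 1 was higher and the median was -0.71. Over all features 3.97% were lower and 1.6% higher. The adhesion molecule Pecam1 had 0.99, -0.01 and -0.77, the VEGF receptor Kdr had 0.69, -0.11 and -0.85, the junction protein Esam had -2.05, -3.75 and -4.56, and Gpihbp1, which anchors lipoprotein lipase to capillaries, had 0.92, -0.35 and -1.57. The cadherin Cdh5 differed by less (-2.57, -3.04 and -3.14). Plvap, which forms the diaphragms of fenestrated vessels, ran against the list with -6.61, -3.78 and -4.11. In 8 of the 15 genes the order was nodule 1, nodule 2, nodule 3, while nodule 1 was above both others in 42.2% of the 10597 placed genes.

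Red cell genes were graded in the same order with small steps. The globin Hbb-b1 had 7.77, 7.33 and 6.68, Hba-a1 had 8.38, 8.27 and 7.69, and the haem synthesis enzyme Alas2 had 1.77, 1.35 and 0.61. The irradiated primary had 4.86, 6.24 and -1.62 for these genes and thus lay below every nodule. Of 17 genes kept, 6 were at least 2-fold lower in nodule 3, against 3.97% over all features, and 0 higher (median -0.64). Globin genes can share signal through similar sequences. Of 10 platelet and mast cell genes, the mast cell chymase Cma1 (-5.32, -1.39 and -1.57) and tryptase Tpsb2 (-5.76, -3.45 and -4.06) were low in nodule 1, while the platelet chemokine Pf4 (-1.87, -1.93 and -2.21) was even.

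Fibroblast and matrix genes varied less. Of 23 collagen and matrix genes kept, 1 was at least 2-fold higher in nodule 3 and 2 lower (median -0.19), and of 13 fibroblast genes 1 was higher and 1 lower (median -0.12). Over all features 1.6% were higher and 3.97% lower. The chain Col3a1 had 4.52, 4.55 and 4.36, fibronectin (Fn1) had 7.17, 6.60 and 6.64, and the proteoglycan Bgn had 7.42, 7.30 and 7.12. Lower in nodule 3 were basement membrane Col4a1 (-0.12, -1.10 and -2.20) and the fibrillar chain Col11a1 (-4.91, -5.08 and -6.00), and Fbln5, an elastic fibre protein, was high in nodule 1, at -3.68, which is 1.32 above nodule 2, while nodule 3 had -5.11. Higher in nodule 3 was the thrombospondin Thbs2, which was low in nodule 1 (-1.90, 1.36 and 1.83), as was Col15a1 (-3.40, -1.46 and -1.43). Among mesothelial genes Upk1b was graded (0.87, -1.63 and -2.67), and mesothelin (Msln) was even (4.48, 4.90 and 4.84).

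Neutrophil genes split into opposite patterns. Of the 11 genes kept, 7 fell from nodule 1 through nodule 2 to nodule 3. Granule and receptor genes of mature neutrophils among them were the resistin-like Retnlg (2.44, -0.27 and -4.13) and the siderophore-binding Lcn2 (1.15, -1.18 and -3.28). The collagenase Mmp8 had -2.80, -4.85 and -7.69 (at least 7.71-fold lower in nodule 3). The chemokine receptor Cxcr2 had -4.32, -5.48 and -7.46 (at least 3.66-fold). In 3 genes nodule 1 was at least 2-fold below nodule 2, and in 2 it was below both others by that much. The proteases of early granules, Prtn3 (-4.09, -1.27 and -2.13) and Ctsg (-6.22, -4.71 and -5.88), were highest in nodule 2. Of the 11 genes, 7 were at least 2-fold lower in nodule 3, against 3.97% over all features, and 0 higher (median -1.62). The median of nodule 1 minus nodule 2 was 1.15. As for the order of the nodules, nodule 1 was above both others in 42.2% of the 10597 placed genes. Chi3l1, a chitinase-like protein, had 0.65, -2.39 and -6.01 and was among the largest differences of both comparisons. Lung epithelium also makes Lcn2, and its share of that signal was not tested.

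Most macrophage genes differed by less than 2-fold. Of 24 kept, 2 were at least 2-fold higher in nodule 3 (1.6% over all features) and 0 lower, with a median of -0.02, and 4 were at least 2-fold below both others in nodule 1 (2.15% over all features). The complement subunits C1qa (4.14, 4.11 and 3.94) and C1qb (4.72, 4.73 and 4.56), the surface receptor Adgre1 (0.20, -0.32 and -0.25) and Csf1r (-0.79, -1.24 and -0.90) varied little. Low in nodule 1 were the scavenger receptor Cd163 (-4.74, -3.46 and -3.74), lysozyme, Lyz2 (-6.22, -4.96 and -5.02), the complement receptor Vsig4 (-7.08, -5.54 and -5.68) and Rnase3. The 2 higher in nodule 3 were Fabp4, given with the fat cell genes, and the ribonuclease Rnase3 (-7.07, -1.69 and -1.66), which was at least 27.2-fold higher in nodule 2 than in nodule 1. Rnase3 entered the list under the synonym Ear11, and which cells it came from was not tested. Marco, a receptor of alveolar macrophages, had -4.86, -4.89 and -5.86. Of 9 class II antigen presentation genes kept, 2 were at least 2-fold lower in nodule 3, the invariant chain Cd74 (-1.01, -1.39 and -2.70) and RT1-Bb (1.39, 1.34 and 0.05). Over all features 3.97% were lower. The class II list's median was -0.51, and -0.27 with quantile normalization. Of 26 T, NK and B cell genes 22 were on the array by name and 8 were kept, and 0 of these 8 passed 2-fold. Over all lists 570 of 679 genes on the array were kept. Why fewer were kept in this list was not tested.

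**Figure D3:**
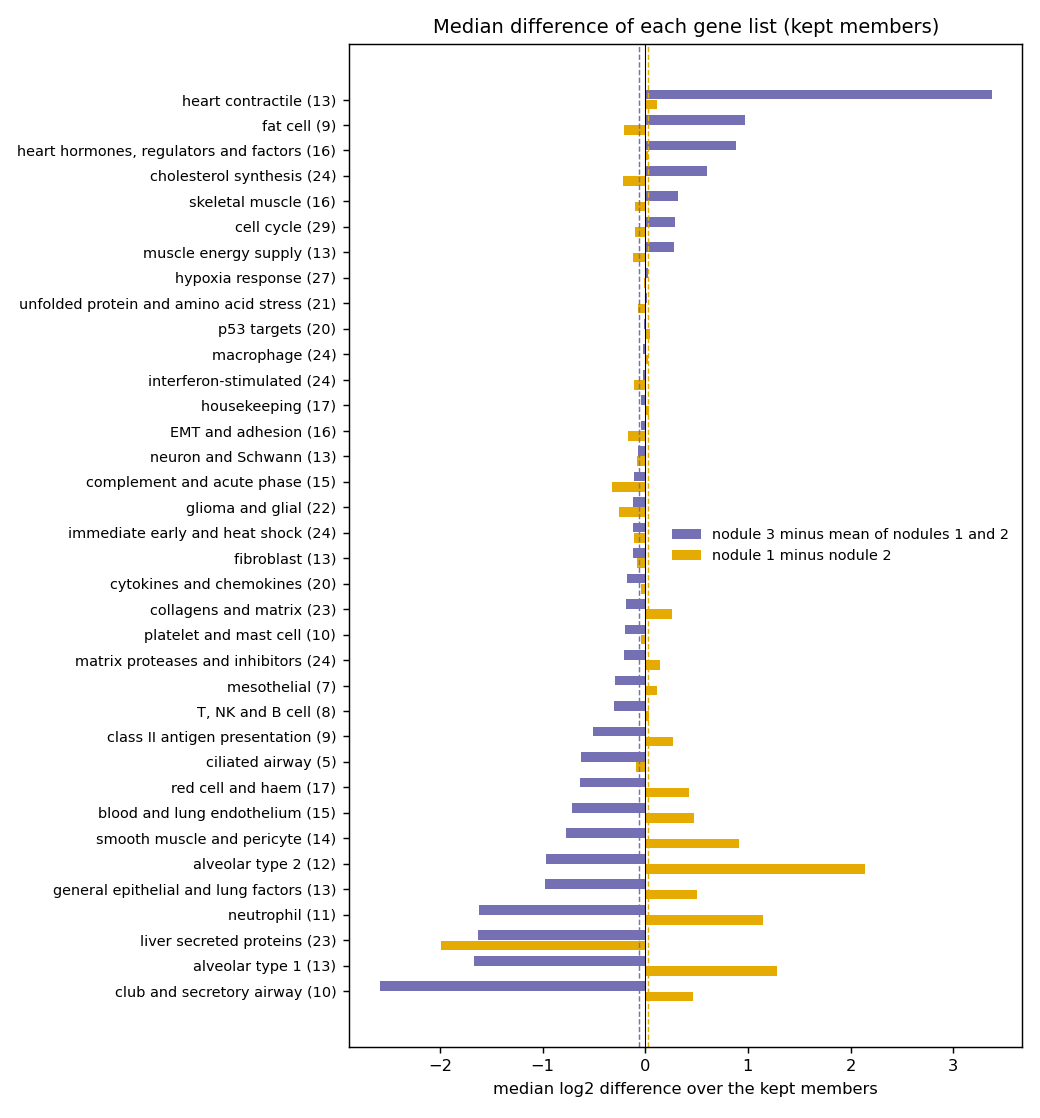
Bars give, for each gene list with its number of kept members in brackets, the median log2 difference of nodule 3 against the mean of nodules 1 and 2 and of nodule 1 minus nodule 2; dashed lines mark the medians over all features (-0.06 and 0.03). Heart contractile genes stand at 3.38 in the first and 0.12 in the second, whereas alveolar, smooth muscle, endothelial, red cell and neutrophil lists point down in the first and up in the second.

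Programmes of dividing tumour cells differed by small amounts. All 29 cell cycle genes kept were well above background on all nodules, and 0 were past 2-fold. Nodule 3 was the highest in 25 of them, with a median of 0.29, against -0.06 over all features. Of 10597 named genes well above background on all nodules and placed on a chromosome, nodule 3 was above nodule 1 in 45.7%. It was above nodule 2 in 45.7% too. Mki67, a marker of dividing cells, had 4.14, 4.19 and 4.41, the mitotic kinase Plk1 had 3.46, 3.72 and 3.98, and cyclin B1 (Ccnb1) had 1.39, 1.64 and 1.96. Cholesterol synthesis was higher in nodule 3 as a group. Nodule 3 was the highest in 23 of 24 genes, 2 were at least 2-fold higher (1.6% over all features) and the median was 0.60. The median was 0.74, 0.63, 0.59 and 0.63 under the median scaling, quantile, normexp and matrix alternatives. The reductase Tm7sf2 had -0.85, 0.42 and 1.34, the cholesterol transfer protein Stard4 had -0.73, -0.32 and 0.51, and Fdps, which makes farnesyl diphosphate, had 3.26, 3.57 and 4.22.

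Several stress and signalling lists stayed near the baseline. For interferon-stimulated genes (24 kept), p53 targets (20), the unfolded protein response (21), hypoxia (27) and epithelial-mesenchymal transition (16), 0 members were past 2-fold in nodule 3, and medians lay between -0.04 and 0.03. The interferon-induced GTPase Mx1 had -0.38, -0.53 and -0.77, the p53 target Cdkn1a had 4.56, 4.43 and 4.38, and the hypoxia-induced Car9 had -1.43, -0.97 and -0.80. Among 24 immediate early and heat shock genes Egr1 alone passed, through nodule 1 (-1.16, 1.12 and 1.00). Among 20 cytokines Cxcl12 was lower in nodule 3 (0.10, -0.58 and -1.43). Of 15 complement and acute phase genes 4 were lower, against 3.97% over all features, and 1 higher, against 1.6%. The lower ones were Lcn2, given above, Orm1 (-3.88, -4.92 and -6.22), A2m (-4.48, -6.55 and -7.06) and Cfi (-4.12, -3.22 and -4.68), and the higher one was Cfd. Matrix proteases differed more between nodules 1 and 2, where 7 of 24 were at least 2-fold higher in nodule 1 and 3 lower. Over all features 3.84% were higher and 3.23% lower. The macrophage elastase Mmp12 had -0.92, -3.48 and -4.49, and Mmp2 had 5.01, 3.93 and 4.11. Of 17 housekeeping genes 0 passed, but the ribosomal and translation genes Rplp0 (8.62, 8.56 and 8.08) and Eef1a1 (7.23, 7.18 and 6.65) were lowest in nodule 3. The array of nodule 3 was also the brightest, with a 75th percentile of 10.7 on the log2 scale against 10.4 on both others, and its part in these differences was not tested.

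Glial and glioma genes varied in both directions. Of 22 kept, 3 were at least 2-fold higher in nodule 3 and 4 lower (median -0.12). Over all features 1.6% were higher and 3.97% lower. In nodule 1, 6 were at least 2-fold lower than in nodule 2 and 1 higher, against 3.23% and 3.84% over all features. Neural crest and glial factor Sox10 had -4.09, -1.47 and -2.82, the stem cell factor Sox2 had -0.49, 1.76 and 1.12, and the glutamate transporter Slc1a2 had -8.07, -5.17 and -5.42. In the non-irradiated primary these genes were at 2.10, 3.08 and -4.08. Nodule 1 was the lowest nodule for each of these genes, and nodule 2 the highest. The calcium-binding S100b ran the other way (1.26, -0.38 and -0.93), nestin (Nes) was lower in nodule 3 (1.72, 1.33 and 0.46), and the brain proteoglycan Bcan was at least 4.48-fold lower there (-4.50, -4.71 and -6.91). Vimentin (5.48, 6.13 and 6.23 for Vim), Cd44 (3.04, 3.23 and 3.16) and the receptor Pdgfra (1.93, 2.26 and 1.89), differed by less than 2-fold.

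Nodule 1 stood apart from the other nodules in both directions, with 605 features at least 2-fold above both and 424 below both. Of the 424 features at least 2-fold below both others, nodules 2 and 3 lay within 0.5 of each other in 325 (76.7%), and 24 differed at least 16-fold between nodules 1 and 2. Nt5dc2 had -2.36 in nodule 1, 3.50 in nodule 2 and 3.22 in nodule 3, with -0.41 and 1.15 in the irradiated and non-irradiated primary. The carboxypeptidase Cpq had -4.08, 1.70 and 1.53, and the cornified envelope protein Evpl had -4.13, 0.13 and 0.10. The primaries were low too, at -3.08 and -4.01 for Cpq and -3.74 and -3.82 for Evpl, so here nodules 2 and 3 were the high samples. The basement membrane protein Tinagl1 had -4.52, -0.40 and -0.46, with 0.32 and -1.57 in the primaries. For each of these 4 genes the difference of nodule 3 from the mean of the others was over 1.5, yet without nodule 1 it was between -0.28 and -0.02. Cma1, given above, Ralgdsl3 (-4.75, -0.77 and -1.26) and the anthrax toxin receptor Antxr1 (-5.52, -1.63 and -2.97) were also low in nodule 1.

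The genes that nodule 1 held above both others were less even. Of 605, nodules 2 and 3 lay within 0.5 in 291 (48.1%), and 6 differed at least 16-fold between nodules 1 and 2. The annexin Anxa8 had 2.18, -2.35 and -2.38, with 0.55 in the irradiated and -2.65 in the non-irradiated primary. The neural adhesion protein Prtg had -1.34, -5.26 and -6.35, the leukocyte integrin Itgb2 had -2.52, -6.27 and -5.07, and the peptidase Enpep had -1.91, -4.93 and -4.85. Camk1g had -2.23, -5.10 and -5.57. Anxa8, Prtg and Itgb2 were well above background in both primaries, Camk1g in 1 and Enpep in none.

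Genes of whole chromosome stretches shifted together between nodule 1 and the others. Chromosomes were taken from the RefSeq gene table (assembly GRCr8), over genes well above background on all 3 nodules, and the stretches and the genes named from them were chosen after their values were seen. Over 368 genes of chromosome 12 the median was -0.33 for nodule 1 minus nodule 2 (quartiles -0.52 and -0.04) and -0.42 for nodule 1 minus nodule 3 (quartiles -0.58 and -0.10), but -0.05 for nodule 2 minus nodule 3. On the other chromosomes the medians of these differences ran from -0.04 to 0.11, from -0.04 to 0.10 and from -0.01 to 0.09. Nodule 1 was below both others in 75% of the chromosome 12 genes, against 33.4% of the genes on all other chromosomes. The collagen-processing factor Pcolce had 6.79, 7.29 and 7.29, the kinase inhibitor Pebp1 had 6.13, 6.68 and 6.78, and the respiratory subunit Cox6a1 had 6.51, 6.94 and 6.96. Actb, also on this chromosome, did not follow (6.70, 6.51 and 6.53). In blocks of 20 consecutive genes, all 19 block medians were negative for nodule 1 against both others, the last block holding 8 genes. Against the irradiated primary the chromosome's median was 0.15 for nodule 1, 0.46 for nodule 2 and 0.54 for nodule 3. Other chromosomes ran from -0.10 to 0.24, from -0.16 to 0.28 and from -0.20 to 0.27. Against the non-irradiated primary it was 0.03, 0.34 and 0.41, with others from -0.16 to 0.29, -0.25 to 0.29 and -0.25 to 0.28. So against either primary nodule 1 lay within the range of other chromosomes, and nodules 2 and 3 lay above it.

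On chromosome 15 a run of 40 genes from Rcbtb2 to Mycbp2 had a median of -0.55 for nodule 1 minus nodule 2, -0.57 for nodule 1 minus nodule 3 and -0.01 for nodule 2 minus nodule 3. Nodule 1 was below both others in 82.5% of these genes, against 33.5% of the genes outside chromosomes 12 and 15. The esterase Esd had 3.08, 4.09 and 4.21, Lmo7 had 1.25, 2.81 and 2.80, and the mitochondrial carrier Slc25a30 had 0.00, 1.39 and 1.03. The next block of 20 genes (Ednrb to Pcca) was also low, at -0.29 and -0.50. The 240 genes before the run, from Kcnma1 to Gfra2, lay the other way, at 0.18 and 0.17. Among them nodule 1 was above both others in 66.7%, against 42.8% outside chromosomes 12 and 15. The last of their 12 blocks (Bin3 to Gfra2) was near 0, at -0.02 and -0.05, and the last 3 genes of the chromosome were positive, at 0.35 and 0.33. Under the other scalings and signals the chromosome 12 median of nodule 1 minus nodule 2 ran from -0.41 to -0.28 and that of the chromosome 15 run from -0.63 to -0.49.

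**Figure D4:**
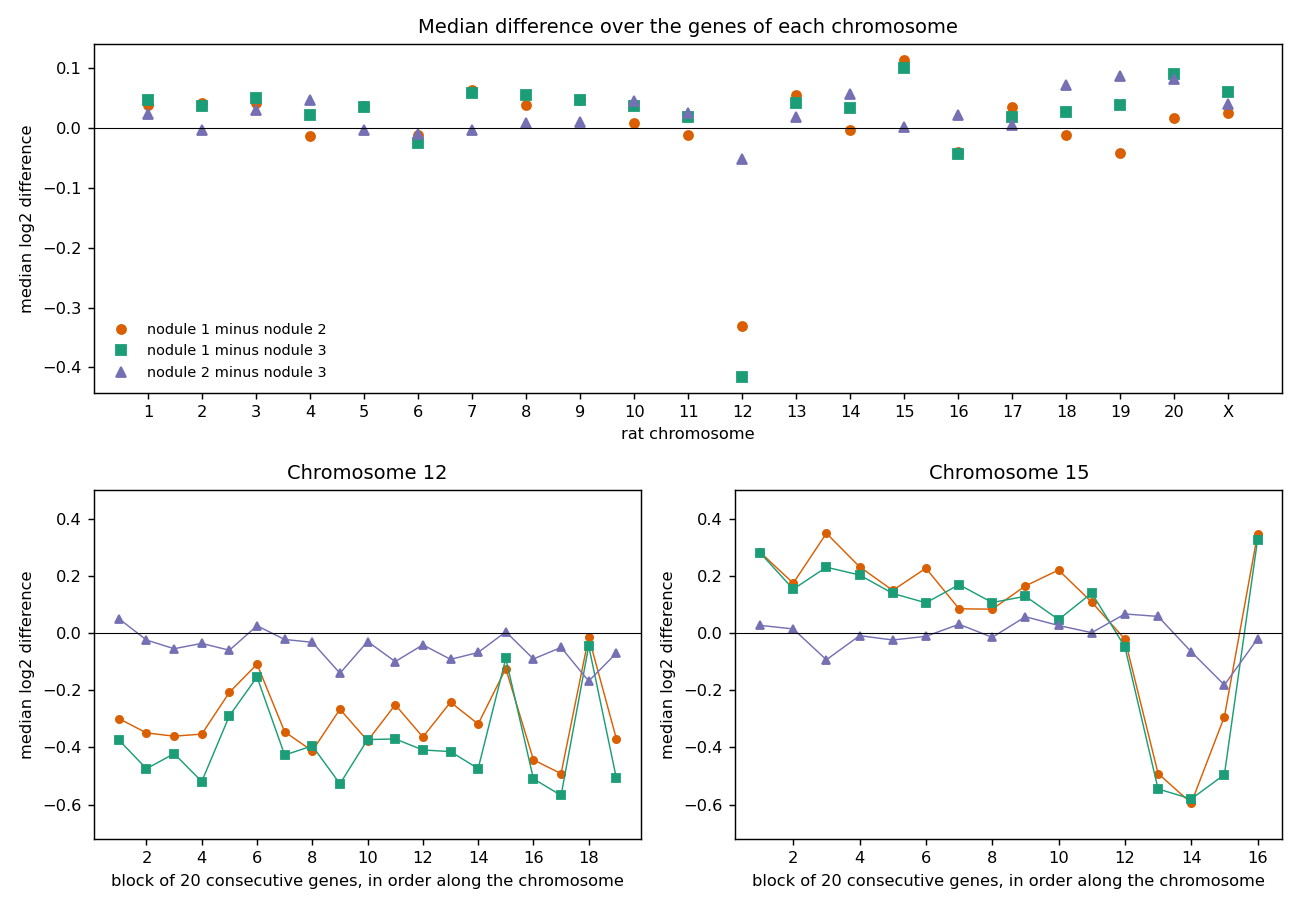
The upper panel gives the median log2 difference between each pair of nodules over the genes of each chromosome, and the lower panels the medians of blocks of 20 consecutive genes along chromosomes 12 and 15 (the last blocks hold 8 and 3 genes). Chromosome 12 stands at -0.33 and -0.42 for nodule 1 against nodules 2 and 3, and on chromosome 15 the same differences are positive in the first 11 blocks, near 0 in block 12 and negative in blocks 13 to 15, while nodule 2 minus nodule 3 stays near 0.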

How the data were processed

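RNA of 3 lung nodules and 2 primary tumours was measured on 1-colour rat arrays, 1 array a sample, all on 1 slide. Signals were extracted with Agilent Feature Extraction 11.0, per the file headers. The deposited scanner files hold processed signal intensity on a linear scale and spot flags (well above background, saturated, outlier, control), as the authors deposited them. A series matrix deposited by the authors holds log2 values, with a median of 9.74 on each array, whose scaling method is not given in the sources used here. It correlated with the log2 scanner values at 0.9996 to 0.9999 over 18499 matched probes, which shows the same direction. A correlation does not compare the scales.

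Control and outlier spots were left out, log2 of the intensity was reduced by each array's 75th percentile, and spots of a probe were averaged. Of 30363 probes, 18354 took a RefSeq name through their accession (gene table of assembly GRCr8), and the others stayed unnamed. Of several kept probes of a gene the brightest over the nodules was read. A probe was kept where it was well above background on at least 1 nodule, and 2-fold (1 on the log2 scale) was the limit for counting a difference. Nodules are single arrays, so differences were described with no test.

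The genes named are members of 36 gene lists and those with the largest differences between nodules, by size, among genes well above background. Of 764 listed genes 679 were on the array by name, 570 were kept and 499 were well above background on all nodules. The comparison, its members and the lists were chosen with earlier results of these data known. Alternatives were other scalings, normexp on the raw median spot signals (offset 50, limma 3.58.1 in R 4.3.3), the deposited matrix, other filters and limits, and leaving out a nodule. The counting step was tested on simulated data. Python 3.11.15 with pandas 2.3.3 and numpy 2.4.6 was used. One gene that the naming rule selects is not reported here.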

Additional observations from a re-analysis of the deposited data

How the results depend on the processing

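With 1 array a nodule, no difference has a replicate check, and genes near the detection limit carry bounds only. No paired analysis was possible because no test was made and the nodule numbers match no other group.

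Against 316 features higher and 783 lower in nodule 3, normexp gave 96 and 218, the deposited matrix 132 and 204, well above background on all 3 nodules 154 and 338, and a limit of 1.5 gave 156 and 412. Every probe kept gave 1408 lower. Median scaling gave 380 higher and 635 lower. Leaving out nodule 1 gave 203 higher and leaving out nodule 2 gave 645, and the counts lower ran from 571 to 1221. Against 757 features higher and 637 lower in nodule 1 than in nodule 2, normexp gave 203 and 247, the matrix 257 and 341, all 3 nodules 381 and 377, and a limit of 1.5 gave 327 and 341. Every probe kept gave 1485 higher.

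Leaving out nodule 1 turned the sign for 7 genes that set nodule 1 apart, and leaving out nodule 2 kept it. Without nodule 1 and without nodule 2, nodule 3's difference was 0.080 and -2.94 for Enpep, -0.28 and 5.58 for Nt5dc2, -0.17 and 5.61 for Cpq, and -0.024 and 4.23 for Evpl. It was -0.063 and 4.06 for Tinagl1, -0.49 and 3.50 for Ralgdsl3, and -0.18 and 3.74 for Cma1. Of the list medians under all alternatives, 618 moved by less than the reference spread and 30 by more. The 618 can include changes of sign, as for alveolar type 2 genes, from -0.97 to 0.11 in the deposited matrix. The heart contractile median was 1.91 with normexp and 2.01 in the matrix, and that of club cell genes -1.51 and -1.84. The heart hormone median was 0.39 without nodule 1 and 1.48 without nodule 2. Raising dim values to the detection limit and the alternatives for chromosome medians were chosen after seeing the data.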
